A study of Mus musculus with 2 samples.

Results

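The regions described here are peaks of H4K12la, a lactylation mark on histone H4, called inside protein-coding genes in Neuro2a cells given 25 mM lactate, at places where no peak was called in the cells given NaCl. Neuro2a is a mouse neuroblastoma line, and the mark was profiled by CUT&Tag, in which a transposase tethered by the antibody cuts and tags the DNA beside the mark. A lactate peak was taken when it lay on chromosomes 1 to 19 or X, inside a protein-coding gene, more than 1 kb from every protein-coding gene end, and shared no base with a control peak. This choice gave 9951 peaks of the 39727 in the lactate list, and they are called lactate-only below. The peaks were thus chosen by their calls in these same lists, so their height, width and absence from the control list describe the choice and were not tested. The study held 1 library per group, control (NaCl) and lactate, both of the same cell line and the same mark, so no replicate error exists and each comparison is between 2 libraries. All intervals are 95% intervals for counting error only. The cell line was taken from the labels, since peak lists of 1 mark cannot check it beyond the identity genes given below. For comparison, 6014 lactate peaks inside gene bodies overlapped a control peak (shared peaks), and 9851 control peaks inside gene bodies had no lactate partner (control-only peaks).

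Histone lactylation is the attachment of a lactyl group, derived from lactate, to lysine residues of histones. H4K12la is this mark at lysine 12 of histone H4, and acyl marks on histone tails are known for lying at promoters and enhancers of active genes. Inside a gene, such marks can lie at alternative promoters, where transcription of a shorter transcript begins, and at intronic enhancers.

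The absence of a partner was about as common in both libraries. Lactate-only peaks made up 62.3% of the 15965 lactate peaks in gene bodies (61.6% to 63.1%), and control-only peaks 61.7% of the 15976 control peaks there (60.9% to 62.4%), and these intervals overlap. The control list was the longer, with 46561 peaks, and with the control list shortened to the length of the lactate list there were 10393 lactate-only and 7610 control-only peaks. Beside control-only peaks, lactate-only peaks were sparse in the longest genes, dense in the second kilobase from the 5′ end, and more often at annotated internal start sites. Shared peaks had these 3 traits too, so the traits are not particular to lactate-only peaks. With 1 library per group, the effect of lactate and a difference between the libraries cannot be told apart in any of these values.

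The start sites come first, because sequences can be shown for them. RefSeq lists 6389 windows, each from 250 bases before to 50 after an annotated transcript start, that lie inside a protein-coding gene and more than 1 kb from every protein-coding gene end. Lactate-only peaks on the chromosomes with start windows touched one in 374 of 9651 cases, or 3.88% (3.50% to 4.28%). The windows cover 0.188% of the bases of the gene interior, a share that leaves out peak width. Control-only peaks did so in 75 of 9673 cases, or 0.775%, and shared peaks in 514 of 5833, or 8.81% (8.10% to 9.57%). A wider peak touches a window more easily, and the part of width in these shares was not tested. Median widths of touching and other peaks were 232.5 and 166 bp for lactate-only, 562.5 and 274 bp for shared, and 182 and 163 bp for control-only peaks. Counted from the windows, 6.75% were touched by a lactate-only peak and 1.31% by a control-only peak. The share was larger among strong peaks of the lactate library, at 89 of 516 lactate-only peaks with a −log10 q of at least 5, or 17.2% (14.1% to 20.8%). Shared peaks of that strength were alike, at 327 of 1972, or 16.6% (15.0% to 18.3%). Among control-only peaks of the same strength it was 0.727% of 275 peaks (0.0882% to 2.60%). Peaks more than 5 kb from any gene end gave the same order, with 2.63% of lactate-only peaks (2.28% to 3.01%) and 0.633% of control-only peaks (0.475% to 0.828%).

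The bases before 7 of these internal starts are printed because they show the sequence at the strongest of the 374 lactate-only peaks that touched a start. The first 5 are the host-gene starts with the highest fold whose window holds the peak's summit. Mcl1 is a well-known gene of the same kind, and R3hdm1 is a contrast. Each runs 5′ to 3′ over the 250 bases before the start, from RefSeq's GRCm38.p6 (mm10) table, and capitals mark CpG dinucleotides. At Ssh2, Tdrd7, Mcl1 and R3hdm1 the summit lay in the window's last 50 bases, after the start, which are not printed.
Ssh2, chr11:77348030-77348279, plus strand: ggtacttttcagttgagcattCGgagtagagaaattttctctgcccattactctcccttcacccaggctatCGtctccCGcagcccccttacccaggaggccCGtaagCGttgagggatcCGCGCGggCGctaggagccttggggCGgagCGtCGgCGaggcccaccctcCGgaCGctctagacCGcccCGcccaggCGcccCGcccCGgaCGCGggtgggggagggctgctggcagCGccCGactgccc
Cmtr2, chr8:110217710-110217959, plus strand: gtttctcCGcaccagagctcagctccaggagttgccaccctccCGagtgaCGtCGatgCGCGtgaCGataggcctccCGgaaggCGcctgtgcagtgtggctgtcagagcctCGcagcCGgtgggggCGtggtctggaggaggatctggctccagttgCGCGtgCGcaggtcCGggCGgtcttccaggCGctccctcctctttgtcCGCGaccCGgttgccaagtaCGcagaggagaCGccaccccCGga
Eci2, chr13:34994145-34994394, minus strand: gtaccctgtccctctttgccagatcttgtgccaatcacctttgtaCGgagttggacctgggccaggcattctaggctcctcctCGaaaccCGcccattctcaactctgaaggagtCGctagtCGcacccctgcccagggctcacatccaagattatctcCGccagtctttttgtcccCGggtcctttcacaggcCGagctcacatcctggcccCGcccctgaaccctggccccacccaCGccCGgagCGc
Pcgf5, chr19:36409498-36409747, plus strand: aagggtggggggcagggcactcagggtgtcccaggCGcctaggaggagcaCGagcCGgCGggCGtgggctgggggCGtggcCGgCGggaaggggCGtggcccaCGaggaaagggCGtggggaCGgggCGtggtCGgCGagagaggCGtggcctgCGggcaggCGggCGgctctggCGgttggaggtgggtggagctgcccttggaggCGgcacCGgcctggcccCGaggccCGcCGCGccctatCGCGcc
Tdrd7, chr4:45972047-45972296, plus strand: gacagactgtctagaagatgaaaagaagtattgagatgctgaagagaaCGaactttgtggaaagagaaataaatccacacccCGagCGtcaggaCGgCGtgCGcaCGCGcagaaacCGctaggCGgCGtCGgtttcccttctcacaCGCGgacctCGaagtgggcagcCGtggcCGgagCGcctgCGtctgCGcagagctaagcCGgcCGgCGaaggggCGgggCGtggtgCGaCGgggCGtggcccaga
Mcl1, chr3:95658471-95658720, plus strand: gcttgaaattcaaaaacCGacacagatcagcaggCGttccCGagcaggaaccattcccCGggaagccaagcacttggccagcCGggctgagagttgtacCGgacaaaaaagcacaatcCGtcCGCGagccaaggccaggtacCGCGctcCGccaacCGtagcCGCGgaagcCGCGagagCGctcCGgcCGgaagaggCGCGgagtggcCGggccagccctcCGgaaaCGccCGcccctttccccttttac
R3hdm1, chr1:128141737-128141986, plus strand: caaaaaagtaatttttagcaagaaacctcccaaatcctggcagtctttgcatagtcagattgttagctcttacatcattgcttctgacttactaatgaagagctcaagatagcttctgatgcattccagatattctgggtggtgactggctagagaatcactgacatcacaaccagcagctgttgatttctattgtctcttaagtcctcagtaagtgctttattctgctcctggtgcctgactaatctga
The first 6 hold 24, 24, 12, 28, 28 and 26 CpGs, and the R3hdm1 stretch holds none.

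Ssh2 encodes a slingshot phosphatase that activates the actin-severing protein cofilin. Its internal start lies 112 kb from the nearest gene end, and the lactate peak over it (chromosome 11, 77347976 to 77348448, mm10) had 24 summit reads (15.4 to 35.7), with the nearest control peak 91.7 kb away. Cmtr2, an mRNA cap methyltransferase, had 22 summit reads (13.8 to 33.3) at chromosome 8, 110217719 to 110218137. Eci2, an isomerase of fatty acid oxidation, had 20 reads (12.2 to 30.9), and Tdrd7, a tudor-domain protein of RNA granules, had 19 reads (11.4 to 29.7). The Tdrd7 peak lay 7.15 kb inside its gene with no control peak for 166 kb. Pcgf5, a subunit of a Polycomb repressive complex, had 21 reads (13 to 32.1), 51.1 kb from a gene end. Mcl1, an inhibitor of apoptosis, had 33 reads (22.7 to 46.3) at chromosome 3, 95658481 to 95658895, 1.54 kb from an end of its annotated span of 6.24 kb. The enrichment over local background, as deposited by the authors for each peak, ran from 5.92 at Ssh2 to 4.68 at Mcl1. The CpG-free start of R3hdm1 carried a peak of 23 reads (14.6 to 34.5), so CpGs were not present at every touched start.

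The internal starts under lactate-only peaks were GC-rich and CpG-rich. Over the 427 windows touched by a lactate-only peak and no shared peak, the median GC content was 62.0% and the median ratio of observed to expected CpG was 0.71. Windows touched by shared peaks were alike in these medians, at 62.0% and 0.75, with 664 windows. The 69 windows touched by control-only peaks alone had medians of 56.3% and 0.29, and the 5229 windows with no gene-body peak had 50% and 0.27. Chromosome 18 was not used for the start windows. A ratio of at least 0.6 was found in 61.8% of the lactate-only windows (57.0% to 66.5%) and 15.0% of the windows with no peak. Read the other way, the share of windows with a lactate-only and no shared peak climbed with the ratio. It was 1.81% of 1934 windows with a ratio under 0.2 and 19.8% of 796 windows at 0.8 or more. The share touched by control-only peaks alone stayed between 0.834% and 1.67% in all 5 ranges. Windows that also held another class of gene-body peak are left out of that share, and shared peaks took 36.1% of the windows at 0.8 or more. The starts belonged to the host gene itself in 81.0% of the lactate-only windows and to a long noncoding RNA in 19%. Among windows with no peak these shares were 51.0% and 49.0%. The CpG content of the windows moved with the calls, and its part in them was not tested.

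**Figure D1:**
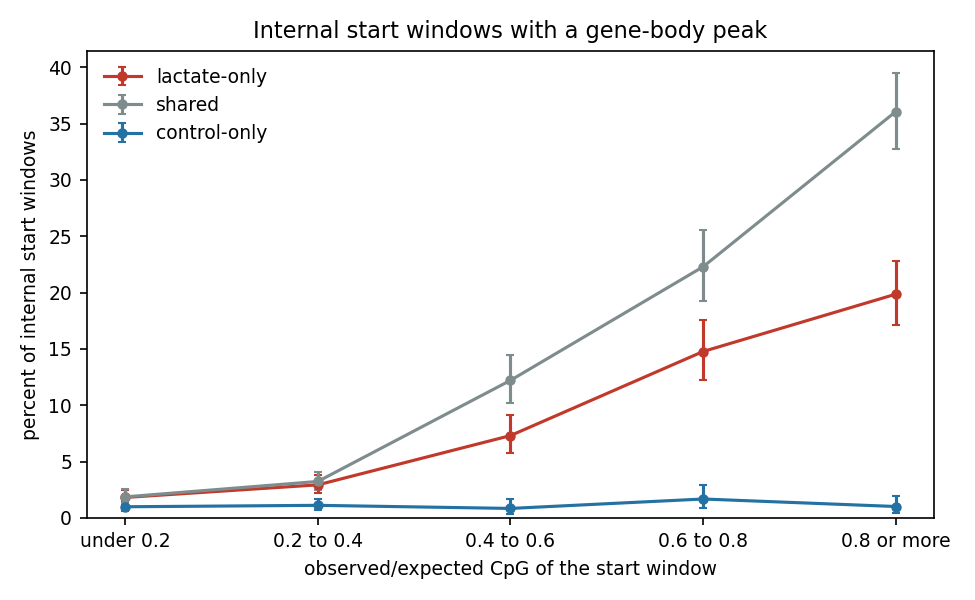
Percent of internal start windows touched by gene-body peaks (y axis) in 5 ranges of observed/expected CpG (x axis), for lactate-only, shared and control-only peaks, with exact 95% binomial intervals as bars. Windows with a shared peak count as shared only, and control-only windows hold no other class of gene-body peak. The lactate-only share reaches 19.8% in the most CpG-rich range while the share with control-only peaks alone stays at or under 1.67%.

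Short promoter motifs were counted in the same windows on both strands as descriptions of their letters. The GC box GGGCGG, bound by Sp1-type factors, was in 61.1% of the lactate-only windows (56.3% to 65.8%) and 61.9% of the shared. It was in 34.8% of the control-only windows (23.7% to 47.2%), 20.5% of those with no peak and 35.9% of all 32619 start windows of the table. The letters CCGGAA, the core of ETS sites, were in 22.7% of the lactate-only windows, 25.9% of the shared, 18.8% of the control-only (10.4% to 30.1%), 7.17% of those with no peak and 15.0% of all. Both motifs hold a CpG, and the CpG content of the windows differed as given above. The CCAAT box differed little, at 36.5% of lactate-only windows, 33.6% of those with no peak and 37.6% of all. TATAAA, the TATA box, went the other way, at 5.85% of lactate-only windows (3.82% to 8.52%), 4.97% of shared, 4.35% of control-only, 14.5% of windows with no peak and 13.7% of all.

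Many hosts of a lactate-only peak at an internal start had no lactate call at their annotated ends. Of 369 genes with a lactate-only peak at an internal start, 238 (64.5%) had no lactate peak within 1 kb of either annotated end, and 228 had none in either library. Over all host genes, 38.5% lacked a lactate call at their ends. The share was not computed for hosts of shared peaks at internal starts. Ldha, which encodes the lactate dehydrogenase subunit that makes lactate from pyruvate in muscle and tumour cells, is 1 of the 228. Its peak at chromosome 7, 46845818 to 46845949, touched an internal start 3.54 kb from a gene end and had 21 summit reads (13 to 32.1). The nearest control peak was 0.918 kb away, and Ldha also held 1 shared gene-body peak. Aldoa, the aldolase of glycolysis, had 29 reads (19.4 to 41.6) at chromosome 7, 126799167 to 126799557, over starts 1.44 kb inside its span. Mcl1 and the ribosomal protein gene Rps2, with 21 reads (13 to 32.1), were further cases. The span used here runs between a gene's outermost annotated ends, so a start used by shorter transcripts counts here as gene body.

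The lactate-only peaks were small. Their summits held a median of 16 reads, against 20 for shared and 14 for control-only peaks, and the lowest summit in either library held 11. Peak width had a median of 168 bp, against 290 bp for shared and 163 bp for control-only peaks. A −log10 q of 5 or more was reached by 538 lactate-only peaks (5.41%, 4.97% to 5.87%), 33.9% of shared peaks and 2.83% of control-only peaks. These values describe peaks chosen for being called in 1 library. The local background that the peak caller used was also higher at lactate-only peaks, with a median of 4.24 reads against 3.46 at control-only peaks and 5.02 at shared peaks, and its part in the differences below was not tested. Genome-wide backgrounds were 3.06 reads in the lactate and 2.96 in the control library.

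**Figure D2:**
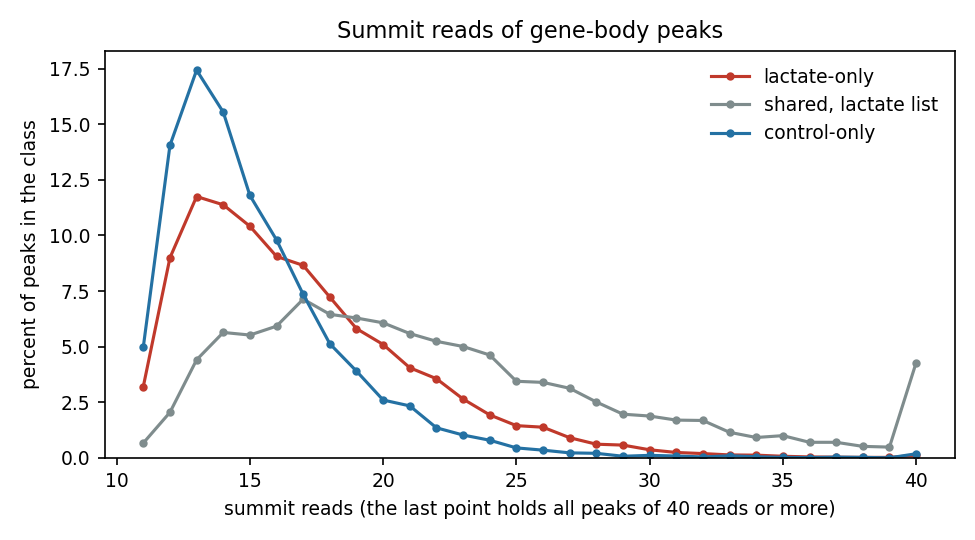
Percent of peaks in each class (y axis) by the number of reads at the summit (x axis), for lactate-only, shared and control-only gene-body peaks, with all peaks of 40 reads or more in the last point. The lactate-only curve lies between the control-only curve, with a median of 14 reads, and the shared curve, with a median of 20.

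Near the limits of the choice, peaks looked alike on both sides. The 398 lactate-only peaks within 100 bp of a control peak had a median of 17 summit reads, and so did the 73 shared peaks covered by control peaks over 10 bp or less. A control peak lay within 1 kb of 1553 lactate-only peaks (15.6%) and was over 10 kb away from 5514 (55.4%). The 138 lactate-only peaks that began 1 to 1.1 kb from a gene end and the 144 just nearer to one, at 0.9 to 1 kb, both had a median of 18 reads. At the significance limit lay single peaks of Gxylt1, a xylosyltransferase, of Camk2d, a calcium-dependent kinase, and of Tut7, an RNA uridylyltransferase, with 19, 19 and 13 reads.

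The strongest lactate-only peaks lay in genes of several kinds. A peak of 34 reads (23.5 to 47.5) at chromosome 18, 23954408 to 23955249, inside the overlapping zinc finger genes Zscan30 and Zfp397, had the highest fold, 6.76. It lay 1.67 kb from an end of Zfp397, and the nearest control peak was 65.1 kb away. Edil3, an integrin ligand of the extracellular matrix, followed with 26 reads (17.0 to 38.1) and a fold of 6.65. Maml3, a coactivator of Notch target genes, had 28 reads (18.6 to 40.5) at chromosome 3, 51701252 to 51701906. Hace1, a ubiquitin ligase, and Scg3, a protein of secretory granules, had 25 reads each (16.2 to 36.9). Lgmn, a lysosomal protease, also reached 34 reads, over a higher background, for a fold of 5.79. Spink2, a protease inhibitor of the male germ line, and Lrmp, a membrane protein of the endoplasmic reticulum, had 23 reads each. Of the 10 highest folds outside chromosome 18, 1 touched an internal start, at Ssh2, and of the highest 100 there 17 did.

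Some strong peaks lay far inside their hosts. Dmd, the dystrophin gene and the longest host at 2390 kb, held 1 lactate-only peak, of 27 reads (17.8 to 39.3), at chromosome X, 83874856 to 83875592. This peak was 1060.2 kb from the nearer end of Dmd, yet 1.89 kb from an end of a gene nested in it, and 484 kb from the nearest control peak. Hdac9, a class IIa histone deacetylase, had a peak of 25 reads (16.2 to 36.9) 418 kb from its ends. Rgs7, a regulator of G protein signalling, had 22 reads at 199.7 kb, and Caln1, a neuronal calcium-binding protein, 21 reads (13 to 32.1) at 115 kb. The widest peaks lay in Foxp1, a forkhead transcription factor, at 1239 bp and over an internal start, Jade1, a scaffold of a histone acetyltransferase complex, at 1181 bp, and Palld, an actin-binding protein, at 1003 bp. Against a median width of 168 bp these were the 3 lactate-only peaks of 1 kb or more.

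Lactate-only peaks were spread over many genes. At least 1 was found in 5246 of 19075 protein-coding genes with a measurable interior, or 27.5%, and 104 peaks lay in overlapping hosts and counted for each. Control-only peaks were found in 23.0% of genes. Hosts with 2 or more lactate-only peaks numbered 2213, or 11.6% of genes, and 343 hosts held 5 or more. Most hosts, 3033 (57.8%), held a single one. A control-only peak lay elsewhere in the body of 2488 hosts, which is 47.4% of the lactate-only hosts and 56.6% of the 4393 control-only hosts. Another 1970 hosts (37.6%) had neither a shared nor a control-only peak in the body. That share was not computed over all genes or over control-only hosts. With control-only peaks in 23.0% of all measured genes, most genes lacked one. In all, 2758 lactate-only hosts held no control-only peak, and 1905 control-only hosts held no lactate-only peak. A peak within 1 kb of a host's end was called in both libraries for 2203 hosts (42.0%), in the lactate library alone for 1025 (19.5%), and in the control library alone for 142 (2.71%). This split was not computed over all genes. Over all genes, gene-end calls were also more frequent in the lactate library in every class of gene length but the longest. The shares were 39.9% for lactate and 25.9% for control calls in the shortest class, and 27.0% and 27.9% in the longest.

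The genes with the most lactate-only peaks were all over 200 kb long. Gse1, which encodes a protein associated with histone deacetylase complexes, held 22 in 353 kb, with summits from 17 to 29 reads and a median of 21. Its 4 shared peaks had a median of 22.5 reads and its 8 control-only peaks 14.5, from 13 to 18. The lactate-only and control-only ranges met only at 17 to 18 reads, each read in the library that made the calls. Reads of the other library at these places were not measured. Maml3 held 20, from 13 to 30 reads, beside 7 shared and 8 control-only peaks. Pde4d, a phosphodiesterase that degrades cyclic AMP, held 19 of 11 to 20 reads beside 18 control-only peaks of 12 to 17, so that gene gave nearly as many calls in each library. Zbtb20, a zinc finger repressor, held 18 against 10 control-only.

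Kalrn, a guanine nucleotide exchange factor at dendritic spines, held 15 lactate-only peaks of 12 to 19 reads, 6 shared peaks and no control-only peak. Cdh13, a cadherin anchored to the membrane by a lipid, held 15 and 26 control-only peaks, whose highest had 25 reads. Ank3, the scaffold ankyrin-G of the axon initial segment, held 14 against 9. Chd9, a chromatin remodeller, Rere, a nuclear receptor corepressor, and Syne1, which links the nucleus to the cytoskeleton, held 13 each, against 5, 4 and 12 control-only peaks. The summits in Rere were among the taller, with a median of 24 reads.

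Per length, genes of 28.3 to 38.5 kb led among hosts with at least 4. Oprd1, the delta opioid receptor, held 5 in 34.3 kb, from 13 to 17 reads, with no shared or control-only peak and no call at either end. Dlg4, which encodes the postsynaptic scaffold PSD-95, held 4 in 28.3 kb, from 18 to 27 reads, again with no other gene-body peak and no call at an end. Ermp1, a metallopeptidase of the endoplasmic reticulum, held 5 of 14 to 21 reads and no other gene-body peak. Cand2, a regulator of cullin ubiquitin ligases, held 4 beside 3 control-only peaks, and the zinc finger gene Zfp13 held 4 beside 2 shared peaks. Another peak of the same class lay within 1 kb of 927 lactate-only peaks (9.32%), 10.5% of shared and 7.07% of control-only peaks. Within 5 kb the shares were 16.8%, 14.8% and 16.3%.

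**Figure D3:**
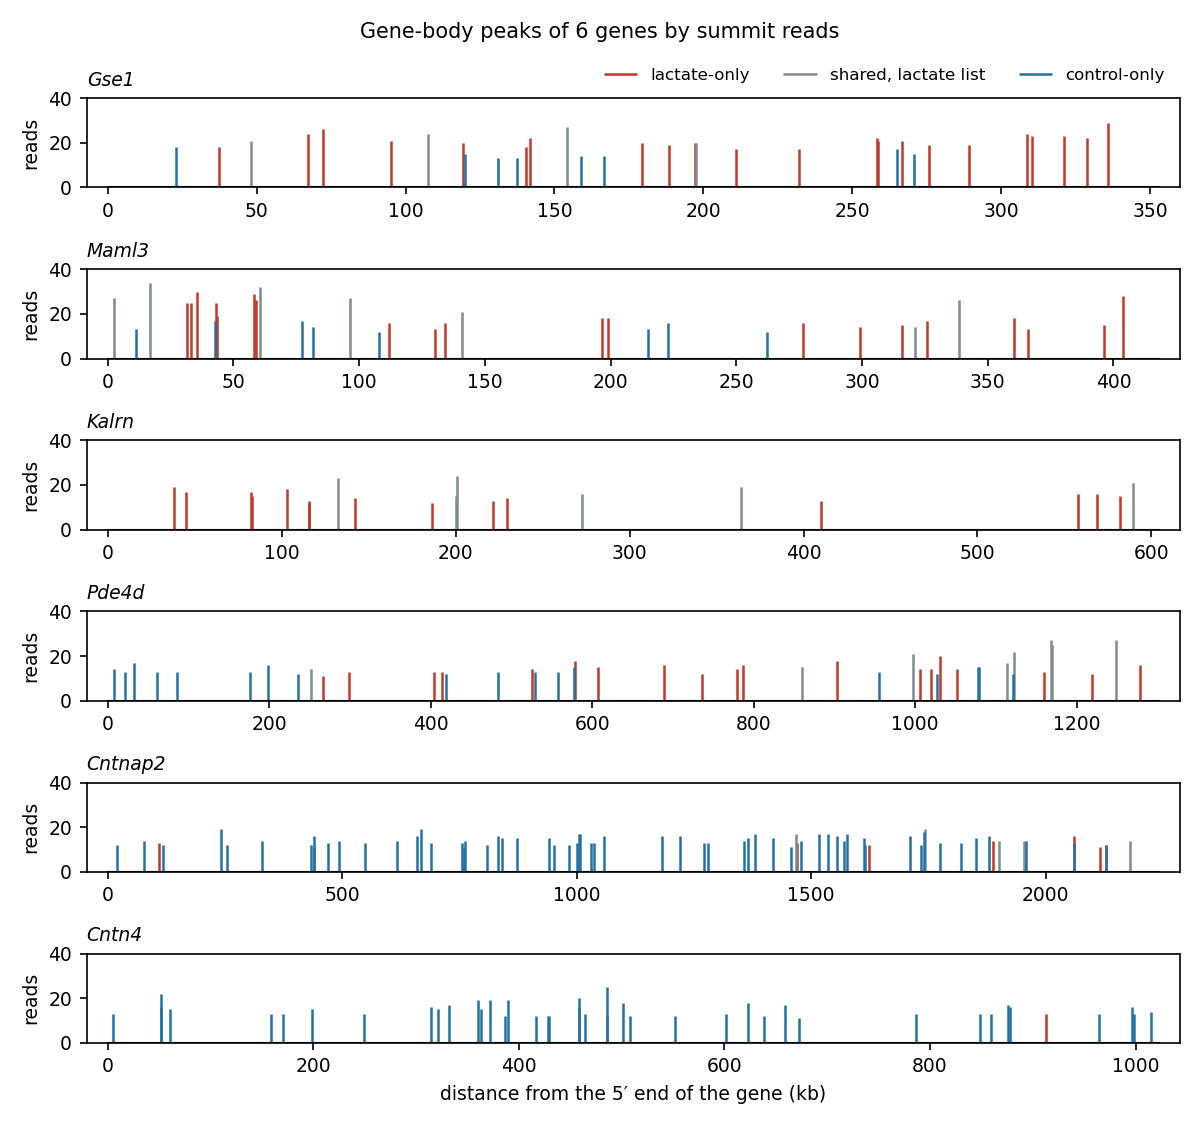
Gene-body peaks along 6 host genes, with distance from the 5′ end in kb (x axis) and summit reads (y axis). Lines stand for lactate-only, shared and control-only peaks, and Gse1 shows 22 lactate-only lines while Cntn4 shows 1 beside 41 control-only lines.

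Lactate-only peaks were sparse in the longest genes, where control-only peaks were not. Hosts of lactate-only peaks had a median length of 56.6 kb (54.0 to 58.3), against 62.4 kb for control-only hosts (59.9 to 65.1), 68.1 kb for shared hosts and 21.5 kb for all measured genes. Longer genes hold more sequence, so densities per Mb of interior are the fairer measure. In genes under 10 kb lactate-only peaks reached 15.5 per Mb (13.7 to 17.4) and control-only peaks 7.82. Between 20 and 200 kb the 2 classes ran in parallel, with 1.21 to 1.30 lactate-only peaks for each control-only peak. Between 200 and 500 kb they were nearly even, at 8.68 and 8.26 per Mb. In the 226 genes over 500 kb the lactate-only density was 3.40 per Mb (3.14 to 3.67) and the control-only density 11.3 (10.8 to 11.8), from 650 and 2155 peaks. In genes of that length, 71.2% hosted a lactate-only peak and 88.9% a control-only peak. The shared density there was also low, at 2.83 per Mb.

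**Figure D4:**
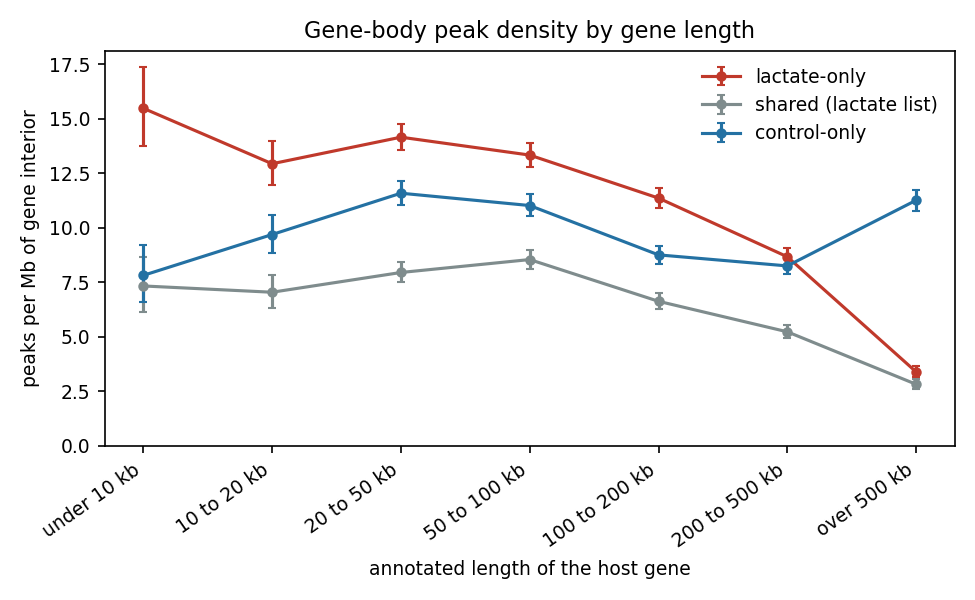
Peaks per Mb of gene interior (y axis) in 7 classes of host gene length (x axis), for lactate-only, shared and control-only peaks, with exact 95% Poisson intervals as bars. Lactate-only density falls to 3.40 per Mb in genes over 500 kb, where control-only density is 11.3.

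Single long genes show the difference. Cntnap2, a neurexin-like adhesion protein that is 2241 kb long, held 7 lactate-only peaks, of 11 to 16 reads, and 59 control-only peaks, of 11 to 19. Cntn4, a contactin adhesion protein, held 1 against 41, chosen here after its values were seen, as was Csmd3, with 1 against 63. Over 39 listed synaptic adhesion and other very long genes, 27 hosted a lactate-only peak, with 100 such peaks against 479 control-only ones. Their lactate-only density was 0.61 times that of all genes of the same length classes (0.50 to 0.75) and their control-only density 0.90 times. The longest class has no upper limit, and the median length of the listed genes was 1139 kb. Lengths within that class were not matched, so the part of length in the 0.61 was not tested. Exceptions ran the other way: Tenm3, a teneurin, held 10 against 6, and Nrxn2, a neurexin of 114 kb, held 5 against none. Magi1, a scaffold at cell junctions, was even, at 10 and 11.

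Distance from the gene ends showed the same gradient. The median distance from a lactate-only peak to the nearest gene end was 17.9 kb (17.3 to 18.5), against 18.7 kb for shared and 27.2 kb for control-only peaks (25.9 to 28.3). Lactate-only summits 1 to 2 kb from an end had a density of 19.8 per Mb (18.4 to 21.2), then 11.1 to 12.7 out to 50 kb, 6.10 at 100 to 200 kb and 2.60 (2.29 to 2.95) beyond 200 kb. Control-only density stayed between 9.30 and 11.2 per Mb in all 8 ranges. The local background of the peaks fell over the same ranges, from a median of 5.12 reads at 1 to 2 kb to 3.10 beyond 200 kb for lactate-only and from 3.80 to 3.12 for control-only peaks, and its part in the gradient was not tested.

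The high density beside gene ends was on the 5′ side, for lactate-only and shared peaks alike. For genes with a strand, 421 lactate-only summits lay 1 to 2 kb inside the 5′ end, or 29.0 per Mb (26.3 to 31.9), and 173 lay 1 to 2 kb inside the 3′ end, or 12.0 per Mb (10.3 to 13.9). Shared peaks had 14.8 per Mb at the 5′ and 4.43 at the 3′ end. Control-only peaks had the opposite order, with 8.27 per Mb (6.86 to 9.89) at the 5′ and 13.4 (11.6 to 15.5) at the 3′ end. From 2 to 5 kb the 5′ lactate-only density was already down to 11.7 per Mb. Many of the nearest peaks neighboured a gene-end peak of the same library: 333 of 797 lactate-only peaks with an edge 1 to 2 kb from an end (41.8%, 38.3% to 45.3%) had one within 2 kb, against 142 of 438 shared peaks (32.4%) and 72 of 449 control-only peaks (16.0%). How far these calls are the flank of a promoter domain was not tested.

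**Figure D5:**
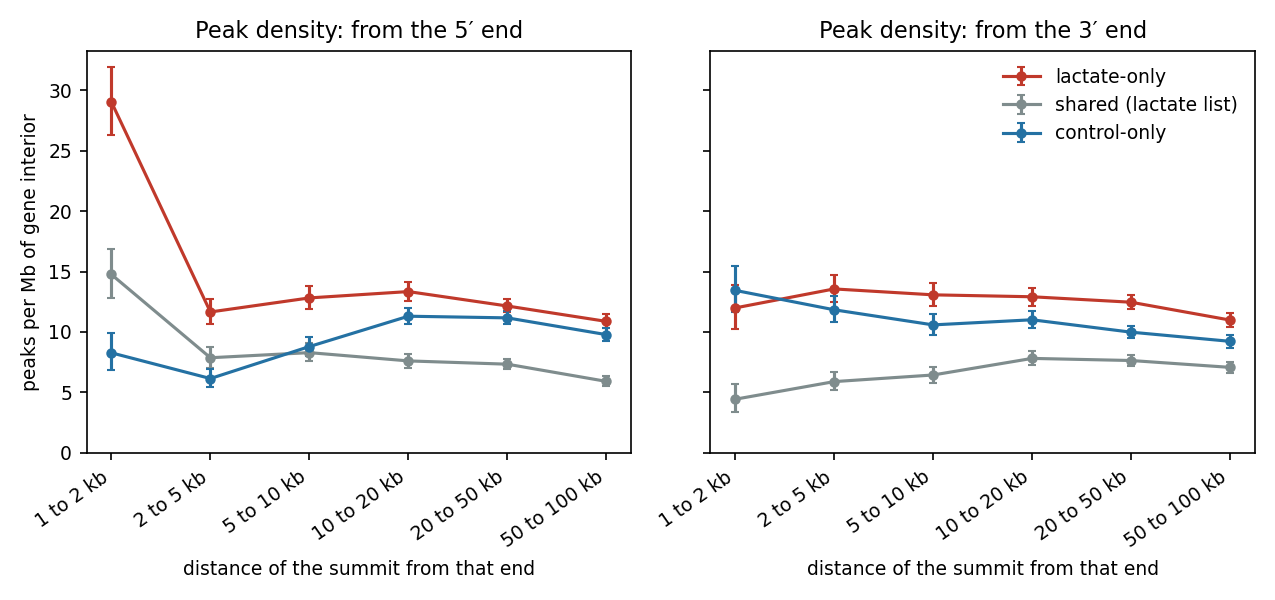
Peaks per Mb of gene interior (y axis) by distance of the summit from the 5′ end (left) or the 3′ end (right), for lactate-only, shared and control-only peaks, with exact 95% Poisson intervals as bars. The lactate-only density of 29.0 per Mb at 1 to 2 kb from the 5′ end compares with 12.0 at the same distance from the 3′ end.

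Among genes of 10 kb and longer, hosts were more often called at their ends than other genes of like length, in both libraries. Among genes of 50 to 100 kb, a lactate peak lay within 1 kb of an end in 69.2% of lactate-only hosts and 41% of the other genes, and a control peak lay there in 52.5% and 31.5%. Control-only hosts of that length had such a lactate call in 69.2% too. Among genes of 200 to 500 kb the shares were 56.1% of lactate-only hosts and 17.1% of the others, and among genes under 10 kb they were even, at 40.2% and 39.9% for lactate and 25.6% and 25.9% for control calls. Density also varied by chromosome. The X chromosome had 104 lactate-only peaks, or 2.38 per Mb (1.94 to 2.88), and 102 control-only peaks, against 10.1 lactate-only peaks per Mb over all interiors. Lactate-only peaks outnumbered control-only peaks most on chromosome 19, at 2.05 to 1, and least on chromosomes 15 and 6, with 0.719 and 0.721 for each. Copy number of the chromosomes in this line was not tested.

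The listed chromatin regulators were rich in lactate-only peaks for their length, in a list drawn up with earlier results of these data known. Of 44 listed genes, 29 hosted 92 of them, at 1.89 times the density of all genes of their length (1.53 to 2.32), while the 63 control-only peaks gave 1.32 times (1.02 to 1.70). Hdac9 held the most, 11 of 11 to 25 reads against 2 control-only peaks, and Hdac4, another class IIa deacetylase, held 9 of 16 to 28 reads against 6. The other class IIa genes held fewer, with 3 in Hdac7, 2 of them at internal starts, and 1 in Hdac5. Arid1b, a subunit of the BAF remodelling complex, held 7 against 5, and Kmt2c, a methyltransferase of histone H3, held 6 against 1. The acetyltransferase genes Crebbp and Ep300, whose products also transfer other acyl groups, held 2 and 1. None was found in Kmt2a, Sirt1, Sirt2 or Hdac3.

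Genes of glycolysis and lactate held lactate-only peaks at a density within counting error of other genes of their length. Of 34 listed, 12 (35.3%) hosted 17 lactate-only peaks against 15 control-only, and the density was 1.18 times that of all genes of their length (0.69 to 1.89), an interval that spans 1. Ldha held 2, of 19 and 21 reads, and 1 shared peak. Pfkfb3, which makes the allosteric activator of phosphofructokinase, held 3 of 18 to 29 reads, and Pfkfb4 held 1 of 30 reads (20.2 to 42.8) at an internal start 3.33 kb from an end. Slc2a3, a glucose transporter, held 2 of 23 and 24 reads. Slc16a3, a transporter that exports lactate, held 1 of 30 reads. Pfkm, the muscle phosphofructokinase, held 2, both at internal starts, and 1 of these was 34 bp from a control peak. None was found in Gapdh, Pkm, Ldhb or Slc16a1. In the TCA cycle and respiratory chain, 9 of 22 genes hosted 16, with 5 in Suclg2, a subunit of succinyl-CoA ligase, and 4 in Cox10, needed for haem of cytochrome oxidase. Their density was 1.76 times that of genes of their length (1.01 to 2.87), beside 1.73 for control-only peaks (0.92 to 2.97).

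The listed neurotransmitter receptor genes were poor in lactate-only peaks and rich in control-only peaks. Of 25 glutamate and GABA receptor genes, 13 hosted 21 lactate-only peaks, at 0.33 times the density of genes of their length (0.20 to 0.50). The 175 control-only peaks gave 1.64 times (1.40 to 1.90). Grin2a, an NMDA receptor subunit, held 5 of 11 to 15 reads against 9, and Grm8, a metabotropic receptor, 3 against 17. Voltage-gated channel genes had 51 against 98, at 0.79 times (0.59 to 1.04), with 10 in Cacna1c, an L-type calcium channel, and 10 in Kcnh1, a potassium channel. Axon guidance genes had 68 against 115, at 0.87 times (0.67 to 1.1). Within that group Slit3, a secreted repellent, held 11 of 13 to 26 reads and no control-only peak, and Unc5c, a netrin receptor, held 10 against 1. Other genes of the group ran the opposite way, among them Unc5d with 4 against 21 and Robo2 with 1 against 20.

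Genes of POMC processing and energy balance hosted lactate-only peaks in 19 of 32 cases, with 55 peaks against 65 control-only, at 1.27 times the density of genes of their length (0.96 to 1.65). Igf1r, the receptor of insulin-like growth factor, held 6, as did Cadm1, an adhesion protein. Negr1, an adhesion protein of neurons, held 4 against 30 control-only peaks. Pomc itself, which encodes the precursor of melanocortins, held no gene-body peak in either list but had a lactate call at an end. Fam172a, the gene named in the study's title, held 3 lactate-only peaks of 13 to 14 reads in 458 kb, 6 shared peaks of 12 to 17 and 17 control-only peaks of 11 to 22. Its lactate-only peaks, at chromosome 13, 77832269 to 77832545, 78074612 to 78074795 and 78163128 to 78163550, lay between 4.74 and 9.91 kb from the nearest control peak.

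Neuronal and neuroblastoma identity genes hosted 38 lactate-only peaks in 18 of 28 genes, with 4 in Lin28b, an RNA-binding inhibitor of let-7 processing. Their density was 1.31 times that of genes of their length (0.93 to 1.80). Elavl4, a neuronal RNA-binding protein, Ncam1, a neural adhesion molecule, and Syt1, the calcium sensor of synaptic vesicles, held 3 each. Cell cycle and replication genes held 10 in 6 of 26, and 5 of these lay in Ccnd3, a D-type cyclin, with 12 to 29 reads. The density of that list was 0.56 times that of genes of their length (0.27 to 1.02), and 0.26 times for its 5 control-only peaks. Of 18 ribosome and translation genes 4 hosted 12 peaks, of which Eif4g3, a translation initiation scaffold, held 9 of 21 to 31 reads beside 8 control-only peaks of 19 to 26. That list had 2.82 times the density of genes of their length (1.46 to 4.93) for lactate-only and 3.08 times (1.54 to 5.52) for control-only peaks. Among 24 markers of other cell types 3 hosted any: Mbp, of oligodendrocytes, held 3, and the endothelial genes Pecam1 and Cdh5 held 2 and 1, and none was found in Gfap, Alb or Ptprc. These markers had 0.80 times the density of genes of their length (0.29 to 1.74). The lists were drawn up with earlier results of these data known, so their densities are descriptions of the lists. Genes of their length are, for every list, the genes of the same length classes. The longest class has no upper limit, and lengths within a class were not matched. The intervals count each peak as independent, though many peaks lay in the same gene.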

How the data were processed

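H4K12la CUT&Tag peaks of Neuro2a cells were read from 1 peak list per treatment label, so n is 1 in each group and no p-value was computed. Per the submitters' processing notes, BWA, MACS2, deepTools and mm10 were used. Their versions and settings were not given in the sources used here. Deposited values are each peak's fold enrichment (a ratio over local background), −log10 p and q, and a score. Summit reads were recovered from the deposited ratio and −log10 p, whole within 0.001 for 46560 of 46561 control and 39727 of 39727 lactate peaks. They are not library totals.

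Peaks overlapping by 1 bp were shared, and peaks on Y or the mitochondrial genome were left out. Gene spans came from RefSeq GRCm38.p6, the assembly of mm10, with 1 span per gene. Gene interiors exclude 1 kb at every protein-coding gene end and had to reach 100 bp. Strands and start windows came from RefSeq's start table, which gave a strand to 81.6% of measured genes once chromosome 18, not used for these counts, was set aside. Intervals are exact binomial and exact Poisson (95%) and cover counting error only. For medians, they are order-statistic intervals over peaks or genes. The scripts were tested on simulated data and used Python 3.11.15, pandas 2.3.3, numpy 2.4.6, scipy 1.17.1 and matplotlib 3.10.9.

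The named genes, with an exception that is not reported here, are the hosts of the 10 highest folds, the 10 hosts with the most lactate-only peaks, the 5 densest with at least 4, the 5 highest folds over 100 kb from the host's ends, the 3 widest, up to 4 per gene list, Fam172a and Pomc, and the 3 lowest q. Predicted gene symbols were passed over. The genes at internal starts and other list members were chosen after their values were seen. The peaks and lists were chosen with earlier results of these data known. Alternatives were another gene-end window, overlap rule, annotation, peak threshold and list length.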

Additional observations from a re-analysis of the deposited data

How the results depend on the processing

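Keeping peaks with a −log10 q of at least 5 left 538 lactate-only and 279 control-only peaks and 509 hosts, with a median host length of 92.8 kb, 6.48% of hosts with 2 or more, a median distance of 15.2 kb, 17.2% at internal starts, and a lactate-only share of 25.4% among peaks of 1 library in genes over 500 kb (23.2% in the report's setting). A 2 kb gene-end window gave a host length of 62.6 kb, a distance of 20.4 kb and 3.33% at internal starts. Counting peaks within 1 kb as shared gave a host length of 58.6 kb, 39.0% of hosts with 2 or more and a share of 20.9%. Requiring 50% coverage gave 45.3%, 5.01% at internal starts and a share of 25.4%. Using the ends of every annotated gene gave 3.03% at internal starts, and lists of equal length a share of 27.9%. Peaks over 5 kb from an end, an alternative chosen after seeing the data, gave a host length of 72.9 kb, 44.5% of hosts with 2 or more and 2.63% at internal starts. Alternatives for the internal-start and long-gene shares were also added then. The lactate-only share in genes over 500 kb stayed between 20.9% and 27.9% in all of these. No paired analysis was possible because each group has 1 library. Each peak rests on few reads, so a call missing from 1 list does not show that the mark was absent there.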

Other observations

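Of 554 annotated miRNA hairpins inside gene bodies, lactate-only peaks touched 3, among them Mir744 and Mir5618, while shared peaks touched 8 and control-only peaks 1, Mir199b.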
